A study of Rattus norvegicus with 18 samples.

Results

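Heme breakdown, iron storage and targets of the transcription factor NRF2 were followed through 10 genes, Hmox1, Hmox2, Blvra, Blvrb, Fth1, Nqo1, Gclc, Gclm, Txnrd1 and Srxn1. They were taken from the 34873 genes of the count table by symbol, with case ignored, and each symbol had 1 row. RNA-seq counts came from the brains of rats in 3 groups, with 6 libraries a group and 18 in all. NC rats were labelled WT with no treatment given (NA). CO rats were labelled WT and inhaled carbon monoxide (CO), which the series' design text describes as 1000 ppm (40 minutes) and then 3000 ppm (20 minutes), to confusion and a carboxyhemoglobin level above 60%. CLCF1 rats were labelled CLCF1knock-down and also inhaled carbon monoxide. The design text describes knock-down by lentiviral shRNA in bone marrow-derived macrophages and injection of such macrophages into rats 2 days after liposomes that remove macrophages. The labels do not say whether NC and CO rats received liposomes or macrophages, nor the strain, sex, age or time of sampling, so the knock-down and those steps cannot be told apart. The NC to CO comparison addresses the response to carbon monoxide, together with any of those steps that CO rats but not NC rats received. The CLCF1 to CO comparison addresses the difference that came with the CLCF1 label.

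Depth was 15.1 to 20.3 M counts per library, and 9 of the 10 members passed the filter on low counts, as did 16581 genes in all. Clcf1, the targeted gene, had 1 to 7 counts in NC libraries, 80 to 118 in CO libraries and 0 to 3 in CLCF1 libraries. The 6 neuron markers summed to 4080 to 4400 CPM (counts scaled to the size of the library) in NC, 4790 to 5680 in CO and 4480 to 5150 in CLCF1. Libraries 3 to 6 of each group stood apart from libraries 1 and 2. Of the genes at 0 counts in both libraries 1 and 2 of a group (42660 cases over the 3 groups), 0 had a count in libraries 3 to 6 of that group. In libraries 1 and 2 of another group, 6.17% to 11.9% of such genes had a count. Whether libraries 3 to 6 are separate animals was not tested, and p-values measure only the spread between libraries. Log2 fold changes are therefore also given from libraries 1 and 2 alone, where 2 libraries a group give the test little power and no pathway gene named here passed.

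Heme oxygenase opens the heme ring and releases iron, biliverdin and carbon monoxide. Biliverdin reductases turn biliverdin into bilirubin, and ferritin, a shell of heavy and light chains, stores the freed iron. NRF2, paired with a small MAF protein, switches on Hmox1, Nqo1, Gclc, Gclm, Txnrd1, Srxn1 and ferritin genes through a DNA motif called the antioxidant response element, while BACH1 holds the same sites closed until heme displaces it. Heme oxygenase-1 is the inducible enzyme and heme oxygenase-2 the constitutive one that is abundant in brain.

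The antioxidant response element was looked for next to the genes' start sites, as TGACNNNGC on either strand, in RefSeq promoters of 300 bases (250 before to 50 after a start, build GRCr8). The table held 10 entries for 8 of the 10 members and none for Hmox1 or Fth1. The motif was present in entries of 4 members, Hmox2, Blvra, Gclm and Txnrd1, and in 12.1% of all 33469 promoters. The entries of Blvrb, Nqo1, Gclc and Srxn1 held no match, and sequence beyond the 300 bases was not searched. The 4 matches are shown for their sequence alone, and whether NRF2 acts through them was not tested. They are written 5′ to 3′ on the strand that reads TGACNNNGC, which in each case is opposite to the gene, with the motif in capitals.
Hmox2, chr10:11337689-11337717: ctggccaagcTGACACTGCcttccaagac
Blvra, chr3:134802755-134802783: tccacttcggTGACCCAGCaaatatttaa
Gclm, chr2:213031953-213031981: tggaagacaaTGACTAAGCagaaaccgca
Txnrd1, chr7:22755964-22755992: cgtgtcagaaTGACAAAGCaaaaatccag
The motif began 95 bases before the start of Hmox2, 145 before that of Blvra, 172 before that of Gclm and 78 before the second of the Txnrd1 starts. A core of the hypoxia response element, ACGTG on either strand, was found in the Hmox2 entry that is shown above and in no other member's entry, and in 19.3% of all promoters. It did not overlap the first motif.
Hmox2, hypoxia response element core, chr10:11337609-11337633: ggacggcaggACGTGcgcacgcagc
A match of letters is a description and not a measured binding site.

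Levels differed widely between the members when counts were set per gene length. Mean CPM per kilobase over the 18 libraries was 58.5 for Hmox2, 31.8 for Blvra, 28.6 for Blvrb, 21.3 for Txnrd1, 19.4 for Gclc, 15.0 for Nqo1, 12.3 for Gclm, 10.1 for Srxn1 and 6.68 for Hmox1. Fth1 was listed at 0. Hmox2 stood above all other members in all 3 groups, with its lowest library at 45.9 CPM per kilobase and the highest library of any other member at 42.1, in Blvra. Below it, each member overlapped its neighbours in this order in the range of their libraries, as the plot of levels per length shows. The constitutive enzyme thus held most heme oxygenase mRNA, and Hmox1 made up 9.14% ± 1.14 of the sum per length in NC, 11.6% ± 2.01 in CO and 9.70% ± 1.43 in CLCF1 (mean ± SD, n = 6). Those ranges overlapped, at 6.85% to 9.97%, 9.19% to 13.9% and 7.84% to 12.03%.

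**Figure D1:**
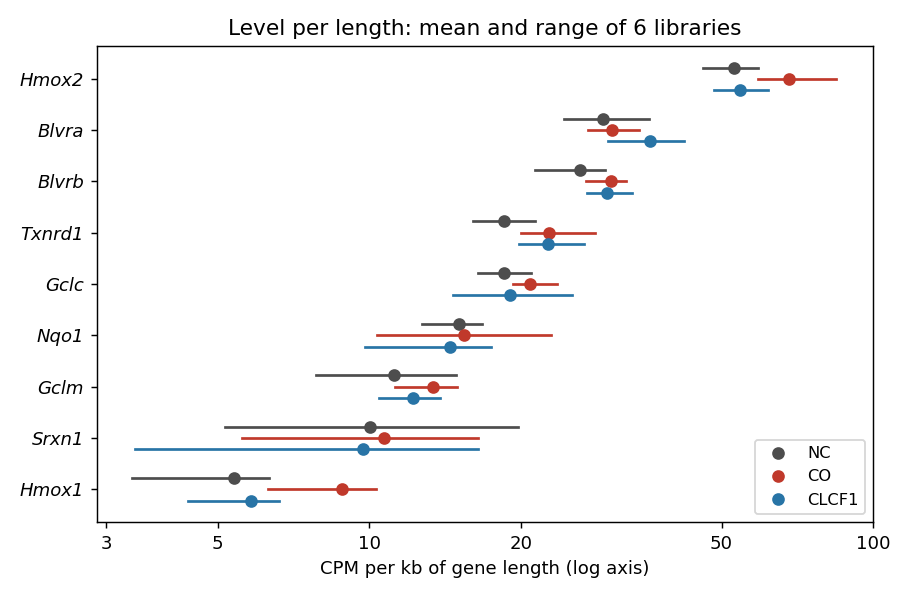
CPM per kilobase of gene length on a log axis for the 9 members with counts, with a point for the mean and a line for the range of 6 libraries in NC, CO and CLCF1. Hmox2 lies above the rest and Hmox1, at a mean of 6.68, is the lowest on average, with Srxn1 the widest in range.

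Of the 9 members tested, 2 rose in CO against NC, Hmox1 and Hmox2, and 7 did not pass (edgeR's quasi-likelihood test, adjusted p under 0.05). In the same comparison 12.7% of all genes tested passed, and 6.32% passed with a rise. Estimates were positive for all 9 members, with a median log2 fold change of 0.20, beside 0.0066 over all genes tested. With sign ignored, the median over all genes was 0.27, larger than that of the members. The share of all genes with a positive estimate was not computed. In libraries 1 and 2 alone the members' median was 0.14 and 8 of the 9 were positive. In CLCF1 against CO, 2 members fell, again Hmox1 and Hmox2, where 17% of all genes passed and 8.34% passed with a fall, and the median over the 9 members was -0.13 (-0.054 in libraries 1 and 2), beside 0.0018 over all genes. In CLCF1 against NC, 0 of 9 members passed by edgeR, by DESeq2 or by limma-voom, beside 9.26% of all genes by edgeR. Blvra and Txnrd1 had an unadjusted edgeR p under 0.05 there. The comparisons share the CO or the NC libraries, so the rise and the fall of Hmox1 and Hmox2 are not independent of each other.

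**Figure D2:**
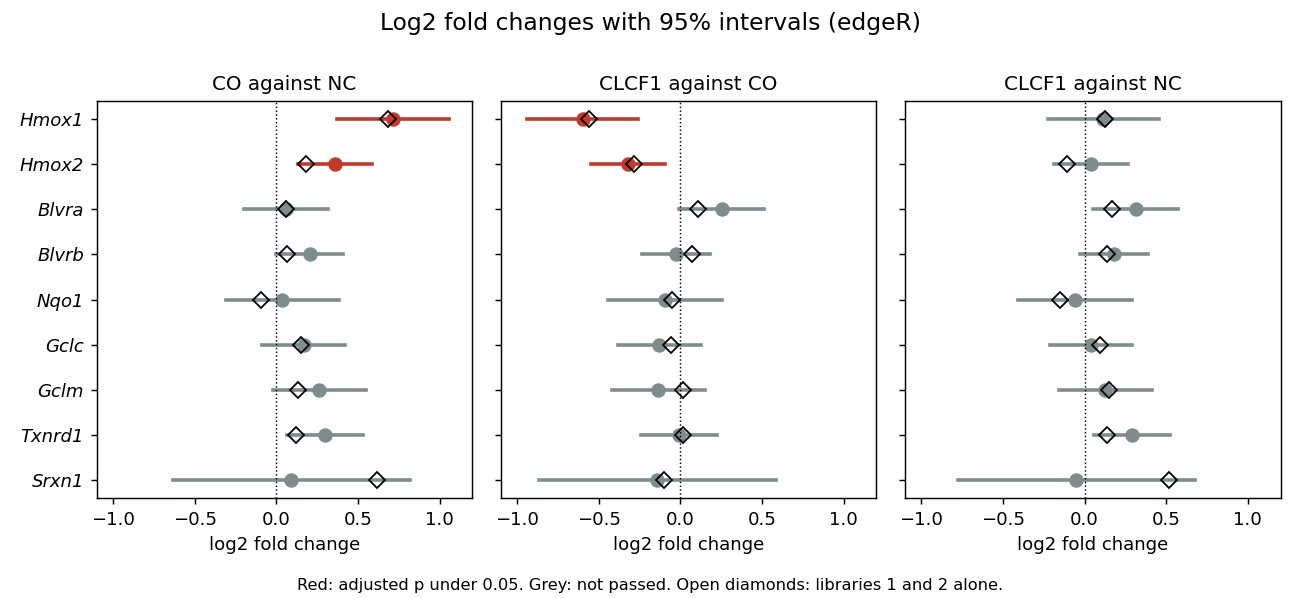
Log2 fold changes of the 9 tested members in the 3 comparisons, with 95% intervals, red where the adjusted p was under 0.05, and open diamonds for libraries 1 and 2 alone. Hmox1 and Hmox2 lie to the right of 0 in CO against NC and to the left in CLCF1 against CO, and no member is red in CLCF1 against NC.

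Hmox1 (ENSRNOG00000014117, chromosome 19, 14508616 to 14515456, plus strand, coordinates as the count table gives them with no build named), the inducible heme oxygenase, had its highest levels in CO. Its lowest, median and highest CPM were 5.29, 8.79 and 9.90 in NC, 9.83, 14.5 and 16.1 in CO, and 6.82, 9.37 and 10.4 in CLCF1. Of the 6 CO libraries 5 lay above every NC library, and CO library 3, at 9.83, fell just under the highest NC library, so the groups overlapped. Hmox1 was 1.64-fold higher in CO than in NC, with a log2 fold change of 0.71 ± 0.16 (SE, n = 6 per group, edgeR adjusted p = 0.00883). In libraries 1 and 2 it was 9.68 and 8.10 in NC and 13.9 and 15.0 in CO, a log2 fold change of 0.69. In CLCF1 all 6 libraries lay below the CO median, and the level was 1.52-fold lower than in CO (log2 difference -0.60 ± 0.16, edgeR adjusted p = 0.0168, and -0.56 in libraries 1 and 2). CLCF1 and NC differed by 0.11 ± 0.16 on the log2 scale, with a 95% interval of -0.23 to 0.46. Both calls held when any 1 library was left out, with edgeR adjusted p of 0.00567 to 0.0204 and 0.00870 to 0.0387. They did not hold in libraries 1 and 2 alone or in libraries 3 to 6 alone, where adjusted p was 0.999 and 0.0994 for the rise, and 1.00 and 0.121 for the fall.

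Hmox2 (ENSRNOG00000003773, chromosome 10, 10990034 to 11035484, minus strand), the constitutive heme oxygenase, changed by less. Its lowest, median and highest CPM were 89.3, 104 and 115.0 in NC, 115.2, 120 and 164 in CO, and 94.2, 102 and 120 in CLCF1. The 6 CO libraries lay above all 6 NC libraries by a narrow margin, the 1 member whose groups did not overlap there, as did 6.35% of all genes tested. CO libraries 5 and 6, at 164 and 159, were set off from the other four, which lay between 115 and 120. The log2 fold change in CO against NC was 0.36 ± 0.11 (edgeR adjusted p = 0.0372), and 0.18 in libraries 1 and 2. In CLCF1 against CO it was -0.32 ± 0.11 (edgeR adjusted p = 0.0498), and -0.29 in libraries 1 and 2, with groups that overlapped. Both calls sat at the threshold. The rise was lost without NC library 2, 3, 4 or 6 or CO library 5 or 6, with edgeR adjusted p of 0.0666, 0.0808, 0.0546, 0.0624, 0.0850 and 0.0836. The fall was lost without CO library 5 or 6 or CLCF1 library 1, 2, 3 or 5, with 0.0931, 0.0910, 0.0690, 0.0978, 0.0795 and 0.0895. Without CO library 5 the log2 fold changes were 0.29 and -0.27.

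In libraries 1 and 2 alone, groups did not overlap for 5 of 9 members in CO against NC (34.1% of all genes tested), 2 of 9 in CLCF1 against CO (30.7%) and 1 of 9 in CLCF1 against NC (27.3%). With 6 libraries a group, 0 of 9 members were without overlap in CLCF1 against CO (7.12% of all genes) and 0 of 9 in CLCF1 against NC (5.63%). Some cell type markers moved with the groups. Of all genes, 12.7% passed in CO against NC, 17% in CLCF1 against CO and 9.26% in CLCF1 against NC. The 6 neuron markers did not overlap between NC and CO in their summed level (given above), and 1 of the 6, Snap25, rose. In CLCF1 against CO the neuron markers Map2 and Nefl passed, 1 higher and 1 lower. The widest difference was in choroid plexus markers, of which 4 of 5 (Ttr, Kl, Folr1 and Slc4a5) rose in CLCF1 against CO (median log2 fold change of the 5, 6.58) and in CLCF1 against NC (4.64). They summed to 1.58 to 149 CPM in NC, 0.445 to 34.1 in CO and 15.0 to 5840 in CLCF1, where library 1 was the highest and library 2 the lowest. Of 6 astrocyte markers, Aldh1l1 fell in CO and in CLCF1, both against NC, and Slc1a2 fell in CLCF1 against NC, with sums of 3280 to 4180, 2310 to 5320 and 2920 to 3960 CPM in NC, CO and CLCF1. The 5 fibroblast and meninges markers summed to 299 to 419 CPM in NC, 128 to 215 in CO and 235 to 341 in CLCF1, and 4 of the 5 fell in CO against NC (Col1a1, Col1a2, Dcn and Lum) and 2 rose in CLCF1 against CO (Dcn and Lum), the fall and rise that Slc7a11, Cp and Txnip of the pathway lists also showed. The 6 microglia markers summed to 220 to 309, 212 to 300 and 272 to 352 CPM in NC, CO and CLCF1. Of these, P2ry12 and C1qa passed in CO against NC, 1 higher and 1 lower, and C1qa rose in CLCF1 against NC. Markers of border or infiltrating macrophages, cells that express Hmox1, summed to 72.7 to 151, 69.1 to 179 and 102 to 136, with Ccr2 at 0 in all libraries. The red blood cell markers found summed to 0.695 to 320 CPM in NC, 1.07 to 1.95 in CO and 0.484 to 2.34 in CLCF1. Of the 3 tested, Hbb fell in CO and in CLCF1, both against NC. The part of these differences in the changes of the members and of the pathway genes was not tested, and in bulk tissue a change in the share of a cell type and in RNA per cell cannot be told apart.

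**Figure D3:**
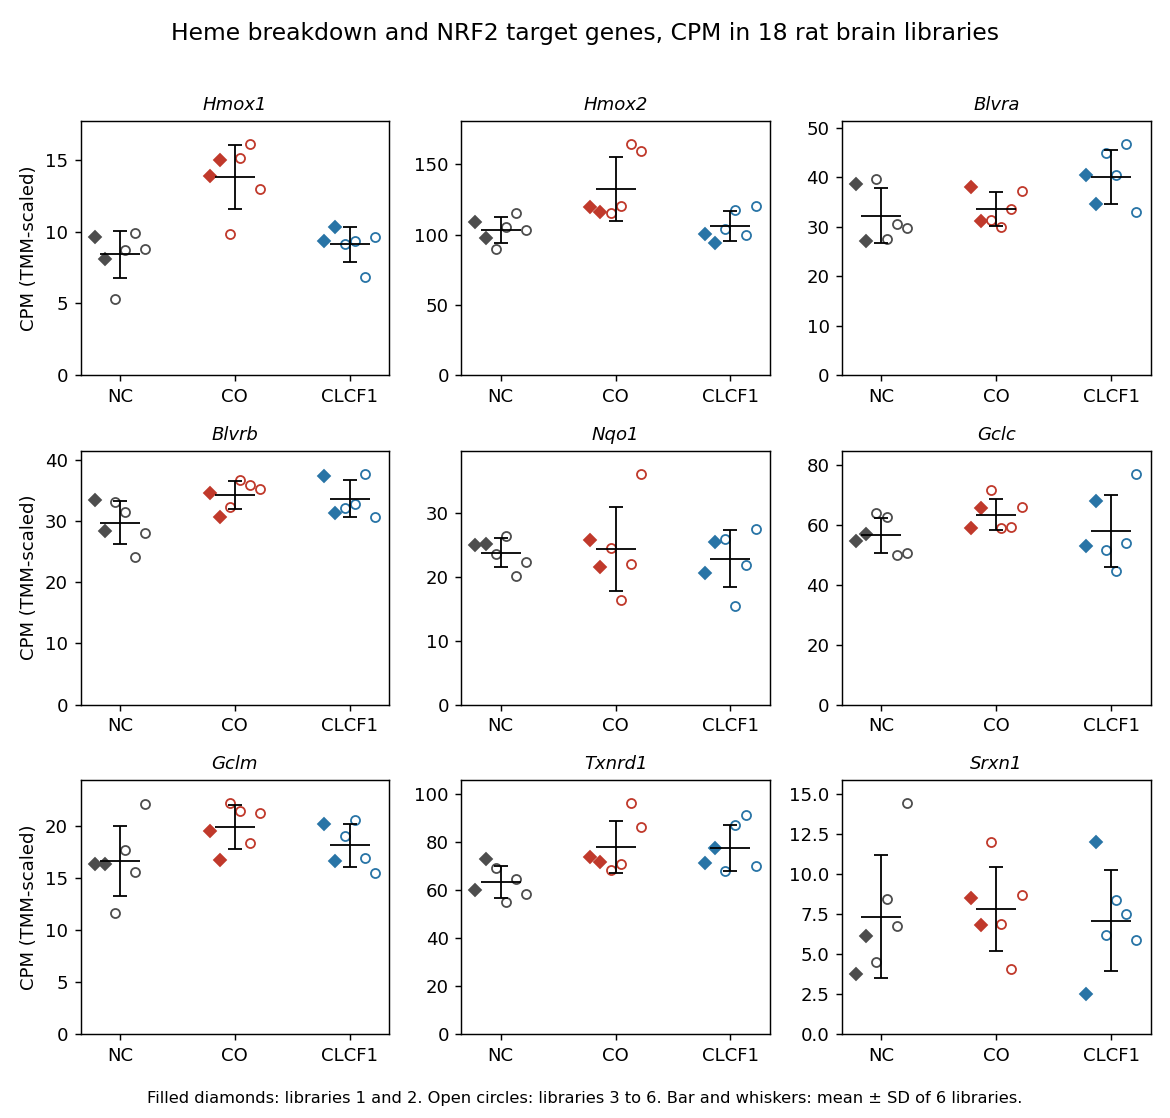
CPM of the 9 members with counts in each of the 18 libraries, by group, with libraries 1 and 2 as filled diamonds, libraries 3 to 6 as open circles and the mean ± SD of 6 libraries in black, each axis from 0. Hmox1 is highest in CO, at 9.83 to 16.1, and Srxn1 spreads in every group from below 5 to above 12 CPM.

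The biliverdin reductase genes did not pass in any comparison. Blvra (ENSRNOG00000011778, chromosome 3, 119561290 to 119577806, plus strand) encodes biliverdin reductase A. Its lowest, median and highest CPM were 27.0, 30.2 and 39.8 in NC, 30.1, 32.5 and 38.1 in CO, and 33.0, 40.5 and 46.7 in CLCF1. The estimate was highest in CLCF1, at 0.31 ± 0.12 against NC (edgeR adjusted p = 0.117, and 0.17 in libraries 1 and 2) and 0.25 ± 0.12 against CO (0.166, and 0.11), beside 0.061 (0.060 in libraries 1 and 2) in CO against NC. Blvrb (ENSRNOG00000024410, chromosome 1, 84256159 to 84274075, plus strand) encodes biliverdin reductase B, also known as flavin reductase. It ranged from 24.2 to 33.4 CPM in NC, 30.6 to 36.7 in CO and 30.7 to 37.7 in CLCF1, with a log2 estimate of 0.20 ± 0.10 in CO against NC (edgeR adjusted p = 0.179, and 0.066 in libraries 1 and 2). The ratio of Blvrb to Blvra per length was 0.913 ± 0.134 in NC, 1.00 ± 0.11 in CO and 0.828 ± 0.0840 in CLCF1 (SD, n = 6).

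The iron storage gene Fth1 (ENSRNOG00000022619, chromosome 1, 226030938 to 226033228, plus strand), the ferritin heavy chain, could not be measured. It had 0 counts in all 18 libraries, where 3 counts would be 0.139 to 0.199 CPM, although ferritin heavy chain mRNA is abundant in brain. Its row overlaps Best1 in the table's coordinates, and whether this bears on the 0 counts was not tested. Reads of ferritin heavy chain appeared in another row, AABR07054189.1 (ENSRNOG00000033100, chromosome 3, 143828611 to 143829156), which the table describes by the heavy chain's protein entry. A further heavy chain row, RGD1561106 on chromosome X, held 15 counts in total, all in CO libraries, at 0 to 5 per library. It did not pass the filter on low counts and was not tested. How the authors' counting split reads between such near-identical copies is not given in the sources used here, so these rows are uncertain as measures of any 1 gene.

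AABR07054189.1 had lowest, median and highest CPM of 16.5, 23.5 and 42.1 in NC, 26.6, 39.8 and 46.6 in CO, and 29.2, 36.2 and 53.4 in CLCF1. All 6 libraries of CO and of CLCF1 lay above the NC median, while NC library 4, at 42.1, lay among them. The log2 estimates were 0.62 ± 0.21 in CO against NC (edgeR adjusted p = 0.0576, and 0.57 in libraries 1 and 2) and 0.61 ± 0.21 in CLCF1 against NC (0.0722, and 0.59). They passed without NC library 4, at 0.83 (edgeR adjusted p = 0.0102) and 0.82 (0.0125), and the first also without CO library 2, at 0.71 (0.0358). Both also passed with DESeq2 (adjusted p = 0.0323 and 0.0386), with limma-voom (0.0407 and 0.0424) and with no filter (edgeR, 0.0405 and 0.0454). DESeq2 and no filter called 4140 and 4291 of all genes in CO against NC, in place of 2110. The row did not pass in 17 of 22 alternatives for CO and 18 of 22 for CLCF1, both against NC. In libraries 3 to 6 alone edgeR adjusted p was 0.212 and 0.273. The 6 libraries of CLCF1 averaged 38.3 CPM and those of CO 38.6. Ftl1, the ferritin light chain gene, ranged from 182 to 402 CPM in NC, 216 to 538 in CO and 275 to 537 in CLCF1, with 0.43 ± 0.21 in both comparisons with NC (edgeR adjusted p = 0.176 and 0.205).

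LOC100360087 (ENSRNOG00000031506, chromosome 5, 152325871 to 152326778), a copy of the light chain gene, was picked out after its values were seen. Its lowest, median and highest CPM were 1.40, 3.63 and 5.70 in NC, 6.42, 11.2 and 28.1 in CO, and 3.53, 11.1 and 14.2 in CLCF1. It rose in CO against NC, with groups that did not overlap (log2 fold change 1.95 ± 0.41, edgeR adjusted p = 0.00571, and 1.60 in libraries 1 and 2). It also rose in CLCF1 against NC (1.56 ± 0.41, edgeR adjusted p = 0.0217, and 1.60 in libraries 1 and 2). The 8 ferritin rows tested are not all separate genes, since AC128792.1 overlaps Ftl1 in position. LOC100360087 was the 1 of them that passed in CO against NC, 12.5% beside 12.7% of all genes. In CLCF1 against CO 0 passed, beside 17% of all genes. In CLCF1 against NC 2 passed, LOC100360087 and another, 25% beside 9.26% of all genes. The other was AABR07008505.1, also a light chain copy and also picked out after its values were seen, at 0.113 to 2.98 CPM in NC, 0.630 to 1.39 in CO and 2.10 to 3.41 in CLCF1. Its log2 fold change in CLCF1 against NC was 1.88 ± 0.54 (edgeR adjusted p = 0.0352, and 2.74 in libraries 1 and 2), and 3.15 without NC library 4 (0.000105). That call was lost without NC library 1, 2, 3, 5 or 6 or CLCF1 library 4, 5 or 6, with edgeR adjusted p up to 0.0716. CLCF1 did not overlap CO in this row, but the test did not pass (log2 estimate 1.47 ± 0.53, edgeR adjusted p = 0.0648, and 1.28 in libraries 1 and 2).

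**Figure D4:**
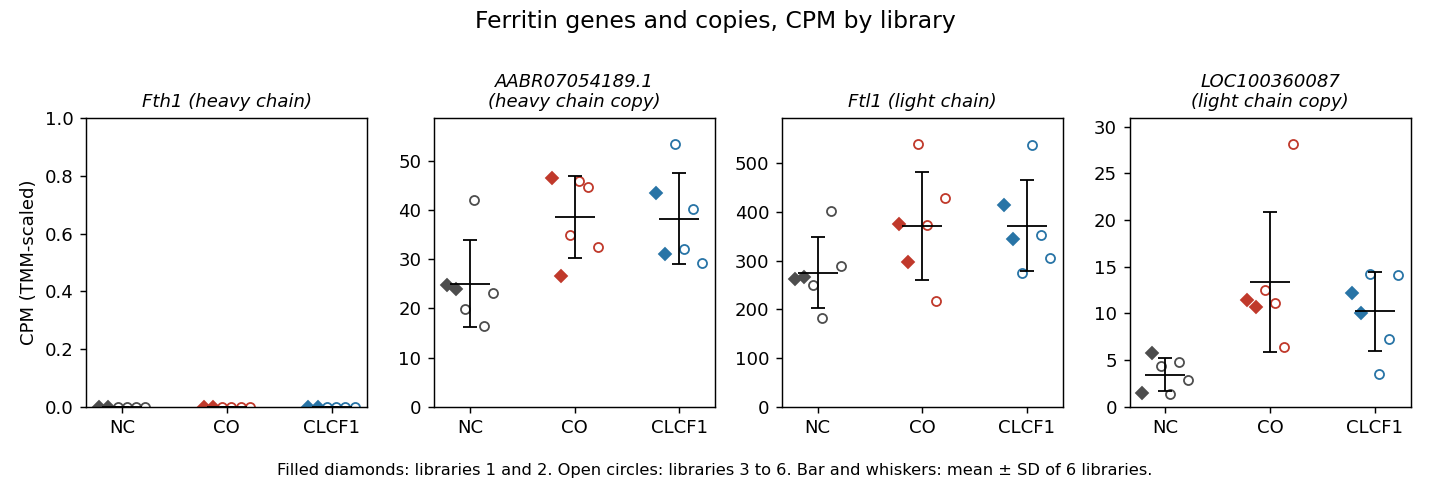
CPM in each library for Fth1, the heavy chain copy AABR07054189.1, Ftl1 and the light chain copy LOC100360087, by group, with libraries 1 and 2 as filled diamonds, libraries 3 to 6 as open circles and mean ± SD in black. Fth1 is at 0 throughout, and the light chain copy lies lower in NC, at 1.40 to 5.70, than in CO, at 6.42 to 28.1.

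Of the 5 enzymes of the NRF2 response, 0 passed in any of the 3 comparisons. Over all genes 12.7% passed in CO against NC, 17% in CLCF1 against CO and 9.26% in CLCF1 against NC. Nqo1 (ENSRNOG00000012772, chromosome 19, 38422164 to 38437180, plus strand) encodes a quinone reductase and is a standard readout of NRF2. Its lowest, median and highest CPM were 20.1, 24.3 and 26.4 in NC, 16.3, 23.2 and 36.1 in CO, and 15.5, 23.6 and 27.6 in CLCF1. The groups lay over each other, and the log2 estimate in CO against NC was 0.037 ± 0.17, with a 95% interval of -0.31 to 0.39, and -0.094 in libraries 1 and 2. The interval holds the changes compatible with these 6 libraries a group, and a limit of detection was not computed.

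Gclc and Gclm encode the catalytic and the modifier subunit of glutamate-cysteine ligase, which makes the precursor of glutathione. Gclc (ENSRNOG00000006302, chromosome 8, 85059051 to 85097468, plus strand) ranged from 50.0 to 63.9 CPM in NC, 58.8 to 71.7 in CO and 44.6 to 77.0 in CLCF1, and its log2 estimate in CO against NC was 0.17 ± 0.12 (edgeR adjusted p = 0.377, and 0.15 in libraries 1 and 2). Gclm (ENSRNOG00000013409, chromosome 2, 225827504 to 225847874, plus strand) ranged from 11.6 to 22.1, 16.7 to 22.2 and 15.5 to 20.6 CPM, with 0.26 ± 0.14 in CO against NC (0.207, and 0.14). For both genes all 6 CO libraries lay above the NC median, yet the groups overlapped. Per length the catalytic subunit exceeded the modifier subunit, and their ratio was 1.74 ± 0.51 in NC, 1.56 ± 0.19 in CO and 1.60 ± 0.51 in CLCF1 (SD, n = 6).

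Txnrd1 (ENSRNOG00000009088, chromosome 7, 26946125 to 26984400, minus strand), cytosolic thioredoxin reductase, came closest to the threshold among the members that did not pass in CO against NC. Its lowest, median and highest CPM were 55.1, 62.3 and 73.1 in NC, 68.6, 72.9 and 96.3 in CO, and 67.9, 74.4 and 91.4 in CLCF1. All 6 CO and all 6 CLCF1 libraries lay above the NC median, and NC library 2, at 73.1, reached into both groups. The log2 estimates were 0.30 ± 0.11 for CO (edgeR adjusted p = 0.0796) and 0.29 ± 0.11 for CLCF1 (0.103), both against NC, and 0.12 and 0.14 in libraries 1 and 2. CLCF1 and CO differed by -0.0084, with a 95% interval of -0.24 to 0.22. Srxn1 (ENSRNOG00000031167, chromosome 3, 147609095 to 147632801, plus strand), which repairs oxidized peroxiredoxins, was the most variable, at 3.78 to 14.5 CPM in NC, 4.09 to 12.04 in CO and 2.50 to 12.02 in CLCF1. CLCF1 libraries 1 and 2 were at those ends, 2.50 and 12.02, and the log2 estimate in CO against NC was 0.092 ± 0.35, and 0.62 in libraries 1 and 2.

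Other genes of these pathways were taken from 8 lists holding 77 symbols, of which 70 were found and 66 tested. In CO against NC 2 of the 66 rose and 3 fell, 7.58% beside 12.7% of all genes. In CLCF1 against CO 7 rose and 5 fell, 18.2% beside 17% of all genes. In CLCF1 against NC 3 rose and 2 fell, 7.58% beside 9.26%. The median log2 fold changes over the 66 genes were -0.029, 0.054 and 0.043. The share of these genes called was near that of all genes in CLCF1 against CO and below it in the comparisons with NC.

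Among the 10 genes for NRF2 and its regulators, 2 rose in CO against NC, where 6.32% of all genes passed with a rise. In CLCF1 against CO 3 of the 10 fell, where 8.34% of all genes passed with a fall. Maff, a small MAF partner of NRF2, had lowest, median and highest CPM of 1.80, 2.52 and 10.6 in NC, 14.5, 19.3 and 28.3 in CO, and 2.31, 6.10 and 14.8 in CLCF1. It rose in CO without overlap (log2 fold change 2.45 ± 0.45, edgeR adjusted p = 0.00271, and 2.90 in libraries 1 and 2) and fell in CLCF1 against CO (-1.60 ± 0.44, 0.0173, and -1.32). Mafk, another small MAF, ranged from 7.09 to 29.7, 20.2 to 43.5 and 6.41 to 26.1 CPM and fell in CLCF1 against CO (-1.21 ± 0.34, edgeR adjusted p = 0.0200, and -0.99 in libraries 1 and 2), with an estimate of 0.65 ± 0.33 in CO against NC (0.206). Sqstm1, the p62 autophagy receptor that binds KEAP1 and is itself an NRF2 target, was at 621 to 765, 765 to 1129 and 633 to 830 CPM. It rose in CO against NC (0.42 ± 0.10, edgeR adjusted p = 0.0124, and 0.26 in libraries 1 and 2) and fell in CLCF1 against CO (-0.38 ± 0.10, 0.0151, and -0.29). The mRNAs of NRF2 itself (Nfe2l2), of its repressor Keap1 and of Bach1 did not pass in any comparison, with estimates in CO against NC of -0.30 ± 0.21, 0.31 ± 0.16 and -0.082 ± 0.27.

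Of 10 glutathione and cystine genes 1, Slc7a11, fell in CO against NC and rose in CLCF1 against CO, as did 1 of 6 thioredoxin genes, Txnip. Of 4 genes of NADPH supply, 2 rose in CLCF1 against CO. Over all genes, 6.4% passed with a fall in CO against NC and 8.63% with a rise in CLCF1 against CO. Txnip, an inhibitor of thioredoxin that responds to glucose, had lowest, median and highest CPM of 65.6, 93.1 and 105 in NC, 15.1, 36.7 and 57.2 in CO, and 85.2, 104 and 132 in CLCF1. It fell in CO against NC and rose in CLCF1 against CO, both without overlap (log2 fold changes -1.28 ± 0.24 and 1.53 ± 0.24, edgeR adjusted p = 0.00273 and 0.000635, and -1.05 and 1.04 in libraries 1 and 2). Slc7a11, the cystine importer and a known NRF2 target, was at 38.1 to 241 CPM in NC, 19.6 to 92.4 in CO and 98.4 to 207 in CLCF1. It fell in CO against NC (-1.34 ± 0.40, edgeR adjusted p = 0.0338, and -0.81 in libraries 1 and 2) and rose in CLCF1 against CO (1.47 ± 0.40, 0.0176, and 0.97). The fall was lost without NC library 2, 3 or 4 or CO library 3, 4 or 5, with edgeR adjusted p of 0.0506, 0.0841, 0.0601, 0.0594, 0.0638 and 0.0631. Of the NADPH-forming enzymes, Idh1 rose in CLCF1 against CO (0.71 ± 0.20, edgeR adjusted p = 0.0200, and 0.51 in libraries 1 and 2). Me1 rose there too (0.34 ± 0.10, edgeR adjusted p = 0.0338, and 0.20 in libraries 1 and 2), but its call was lost in 8 of the 12 fits that leave out 1 library, those without CO library 2, 3, 4 or 6 or CLCF1 library 1, 3, 4 or 6, with edgeR adjusted p up to 0.0950.

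In iron handling and heme synthesis, 4 of the 21 genes tested changed between CLCF1 and CO, 19.0% beside 17% of all genes. Lcn2, which binds iron-carrying siderophores, averaged 0.471 CPM in NC, 1.05 in CO and 3.48 in CLCF1, and rose in CLCF1 against CO (1.73 ± 0.46, edgeR adjusted p = 0.0151) and against NC (2.88 ± 0.49, 0.00160), by 1.54 and 2.08 in libraries 1 and 2. Cp, the ferroxidase ceruloplasmin, fell in CO against NC (-1.13 ± 0.34, edgeR adjusted p = 0.0338) and rose in CLCF1 against CO (1.00 ± 0.33, 0.0473), by -0.71 and 0.82 in libraries 1 and 2. Without NC library 4, its highest at 86.8 CPM, the fall of Cp was -0.80 (edgeR adjusted p = 0.0938). The fall was also lost without NC library 1 or 3 or CO library 1, 3 or 5, and the rise without CO library 1, 3, 4 or 5 or CLCF1 library 2, 3, 4 or 6, with edgeR adjusted p up to 0.0944. Tf, transferrin, which oligodendrocytes make, fell in CLCF1 against CO (-0.75 ± 0.22, edgeR adjusted p = 0.0232), by 0.15 in libraries 1 and 2, while 6 oligodendrocyte markers summed to 9430 to 20900 CPM in NC, 10200 to 20500 in CO and 7800 to 16500 in CLCF1. Those markers had a median log2 fold change of -0.55 in CLCF1 against CO, the direction of Tf, and 1 of the 6, Mag, fell. Tf ranged from 477 to 1074 CPM in CO and from 309 to 820 in CLCF1. Its highest CLCF1 library was library 1 and its lowest library 2, as for the sum of the choroid plexus markers. The call of Tf was lost with only the 2 groups compared (edgeR adjusted p = 0.051). The part of oligodendrocytes, or of any other cell type, in the fall of Tf was not tested. Alad, the second enzyme of heme synthesis, rose in CLCF1 against CO (0.47 ± 0.14, edgeR adjusted p = 0.0235, and 0.11 in libraries 1 and 2). Its call was lost without CO library 4 or 6 or CLCF1 library 4 (edgeR adjusted p = 0.0639, 0.0633 and 0.0670). Slc11a2, the iron transporter DMT1, fell in CLCF1 against NC (-0.54 ± 0.13, edgeR adjusted p = 0.0179, and -0.41 in libraries 1 and 2).

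The remaining calls were of low or fragile genes. Cbr1, a carbonyl reductase, fell in CLCF1 against CO (-0.99 ± 0.29, edgeR adjusted p = 0.0234, and -1.18 in libraries 1 and 2), from a mean of 1.27 to 0.632 CPM. In CLCF1 against NC, Osgin1, an oxidative stress response gene, rose (2.59 ± 0.67, edgeR adjusted p = 0.0217, and 1.49 in libraries 1 and 2), from 0.507 to 3.03 CPM, and without CLCF1 library 6 this was 2.24 (0.0507). Cul3, the ubiquitin ligase scaffold that acts with KEAP1, rose there (0.41 ± 0.11, edgeR adjusted p = 0.0312, and 0.15 in libraries 1 and 2), a call lost without NC library 4 or 6 or CLCF1 library 3, 4 or 5 (0.0688, 0.0817, 0.0723, 0.0554 and 0.0551). Aox1, an aldehyde oxidase, fell (-0.84 ± 0.24, edgeR adjusted p = 0.0353, and -0.56 in libraries 1 and 2), a call lost without NC library 1, 3, 4 or 5 or CLCF1 library 1, 3, 4 or 5, with edgeR adjusted p up to 0.0672.

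**Figure D5:**
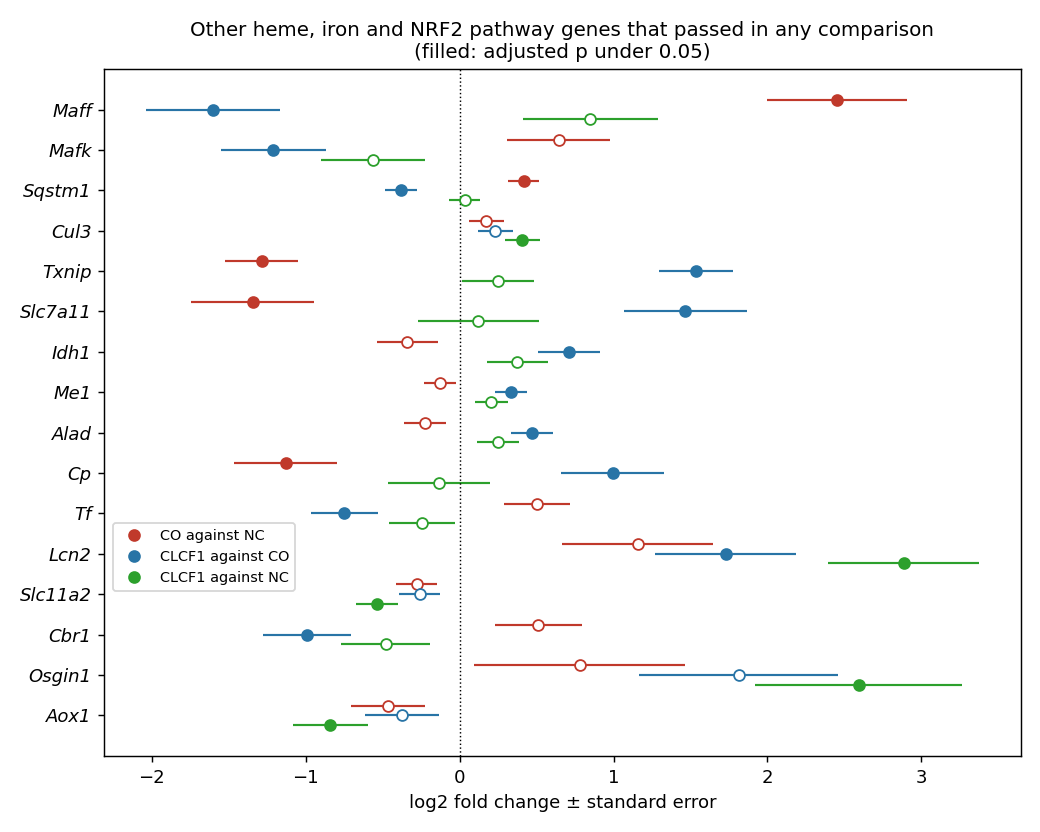
Log2 fold changes with standard errors of the 16 other pathway genes that passed in at least 1 comparison, in CO against NC (red), CLCF1 against CO (blue) and CLCF1 against NC (green), filled where the adjusted p was under 0.05. Maff and Slc7a11 lie farthest apart in CO against NC, at 2.45 and -1.34, and lie on the opposite sides of 0 in CLCF1 against CO.

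The genes whose pattern was most like that of Hmox1 were sought among 14100 named genes, by Pearson's r of log2 CPM over the 18 libraries, as a description. They were Errfi1 (r = 0.865), Cebpb (0.859), Mettl25 (0.847), Zmat3 (0.841) and Plat (0.840), and over the 6 libraries numbered 1 and 2 their r was 0.937, 0.731, 0.892, 0.886 and 0.972. The points share the 3 groups, so genes that differ between groups in the same order score high. Errfi1, a feedback inhibitor of ERBB receptors, was at 7.82 to 73.4 CPM in NC, 133 to 189 in CO and 24.5 to 45.5 in CLCF1, and the transcription factor gene Cebpb at 1.41 to 23.6, 27.5 to 57.9 and 2.27 to 13.2. Among pairs of members the highest r over the 18 libraries was that of Hmox1 and Hmox2, at 0.745. After group means were removed it was 0.447, below Nqo1 with Gclc (0.583) and Blvra with Blvrb (0.537). Over libraries 1 and 2 it was 0.811, below Blvra with Blvrb (0.946), Gclc with Srxn1 (0.855) and Blvrb with Gclm (0.822).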

How the data were processed

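The authors deposited raw, whole-number counts per gene for 18 rat brain libraries, with no normalization. Per the labels' protocols, column-purified total RNA went into SMARTER mRNA-Seq libraries. The sources used here give no aligner, counter or strandedness. The submitters' processing notes list the builds GRCm38 and mm10, both of mouse, whereas the table's gene IDs are of rat. Coordinates are the table's own. Groups came from sample titles. All 18 libraries entered 1 edgeR 4.0.16 quasi-likelihood fit (R 4.3.3, TMM scaling, filterByExpr, robust), with Benjamini-Hochberg adjustment over 16581 genes at 0.05, tested on simulated data first. Unnamed loci, 2328 rows with 1.21% to 1.62% of counts, were filtered like other rows. Library sizes were summed over the genes that passed the filter. CPM used TMM-scaled library sizes, and intervals cover 95%. Alternatives used DESeq2 1.42.0, limma 3.58.1 (voom), other scalings, filters, library blocks and subsets of libraries. The members, lists and rules were chosen with earlier results of these data known. All members were named whatever their p, as was every other pathway gene passing, up to 4 per list and comparison, and the 5 genes most like Hmox1. The limit for a count of 0 is 3 counts per library and covers counting error only.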

Additional observations from a re-analysis of the deposited data

Results flagged for a closer look

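Hmox1 in CLCF1 library 5 was at 6.82 CPM, below the other CLCF1 libraries, of which the nearest was at 9.15. The gap was 0.657 of the group's range of 6.82 to 10.4, more than Dixon's test allows at the 95% level for 6 libraries. It was the 1 value so marked among 27 groups of 6 libraries (9 members in 3 groups), and chance marks about 1 in 20 such groups.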

How the results depend on the processing

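Hmox1 kept its call in 20 of 22 alternatives in both comparisons, and Hmox2 in 11 of 22 (CO against NC) and 10 of 22 (CLCF1 against CO). The members called in CO against NC and in CLCF1 against CO were 1 each, in place of 2, with library size alone, with the stricter filter and with only the 2 groups compared. They were 0 in libraries 1 and 2 alone and in libraries 3 to 6 alone. With limma-voom, 1 was called in CLCF1 against CO. Leaving out 1 library gave 1 to 2 in both. CLCF1 against NC stayed at 0 in every alternative run. Over all genes, calls in CO against NC, in CLCF1 against CO and in the comparison of CLCF1 with NC were 4291, 5645 and 4292 with no filter, 4140, 5254 and 3900 with DESeq2, 918, 1436 and 736 in libraries 3 to 6 alone, and 4, 8 and 2 in libraries 1 and 2 alone, which have fewer samples. The cause of the other shifts was not tested.

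The labels do not say whether library numbers shared by the groups pair the libraries. Deviations from group means of same-numbered libraries had r of -0.0283 to 0.149, with 1 of 18 pairs above 0.1. In 5 of the 18 a library correlated best with its own number. Those were numbers 1, 2 and 3 of NC with CO and numbers 1 and 2 of CO with CLCF1, so pairing was not settled. With the replicate block, 2, 2 and 0 members and 1944, 2787 and 1477 genes were called, and among the other named genes the call of Me1 was lost (edgeR adjusted p = 0.0544).

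Log2 estimates that changed sign were all of members that had not passed. In CO against NC, Nqo1 was -0.0078 with library size alone, -0.0054 with the replicate block, -0.094 in libraries 1 and 2 and -0.0083 with limma-voom, and Srxn1 was -0.11 in libraries 3 to 6. In CLCF1 against CO, Blvrb was 0.0016 and Txnrd1 0.019 with library size alone, Blvrb 0.069, Gclm 0.015 and Txnrd1 0.017 in libraries 1 and 2, and Txnrd1 0.011 with limma-voom. In CLCF1 against NC, Hmox2 was -0.11 and Srxn1 0.52 in libraries 1 and 2, Srxn1 0.049 with limma-voom and Gclc -0.0051 in libraries 3 to 6. Leaving out 1 library gave, in CO against NC, -0.11 to 0.13 for Nqo1 and -0.071 to 0.40 for Srxn1. In CLCF1 against CO it gave -0.069 to 0.00054 for Blvrb, -0.21 to 0.033 for Nqo1, -0.061 to 0.043 for Txnrd1 and -0.36 to 0.020 for Srxn1. In CLCF1 against NC it gave -0.0091 to 0.19 for Hmox1, -0.019 to 0.071 for Hmox2, -0.12 to 0.016 for Nqo1, -0.059 to 0.088 for Gclc and -0.27 to 0.24 for Srxn1. Other members kept their direction in every alternative run.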
